A study of Mus musculus with 10 samples.

Results

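The 53 genes described here encode the machinery that acidifies late endosomes, fuses them with lysosomes and retrieves cargo from them: the vacuolar ATPase, the Rab GTPases and effectors around Rab7, the HOPS tethering complex, endosomal SNAREs and retromer. They were taken by name from a list of these complexes, by a rule that reads no expression value. The genes on that list were, however, chosen with earlier results of these data known. All 53 were among the 24453 gene symbols of the expression table, and 33 of them were among the 4151 genes with enough signal to be tested. The libraries were made from amplified RNA of microglia, the macrophages that live in the brain, which had been purified with magnetic beads from untreated C57bl6 mice. The ageing comparison held 3 libraries from mice aged 15 months, called aged, and 3 from mice aged 10 weeks, called young. The other comparison held 2 libraries labelled Rab7 deltaMG and 2 labelled Rab7 control, from mice aged 3 months, and the series describes the former as null mutants. Which driver deletes Rab7, which part of the gene it removes and which alleles the controls carry is not given in the sources used here.

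The vacuolar ATPase pumps protons into endosomes and lysosomes with a cytosolic V1 sector that splits ATP and a membrane V0 sector that conducts the protons. Rab7 marks late endosomes, where the Mon1 and Ccz1 proteins load it with GTP, TBC proteins switch it off, and its effectors move the organelle and recruit HOPS and SNAREs for fusion with the lysosome. Retromer, another Rab7 effector, returns receptors from endosomes to the Golgi or the cell surface. In microglia this route degrades engulfed synapses, myelin and protein deposits.

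Values were RPM, read numbers divided by a library total and scaled up by a constant, and each gene was compared on the scale of log2(RPM + 1) with limma, a linear model that shares information on spread between genes. A gene was tested if it had at least 10 RPM in at least 2 of the 10 libraries, and was called if its adjusted p over all tested genes was under 0.05. Between 6098267 and 9907464 reads lay behind the scaling of a library, as inferred from the step between its low values, so that 10 RPM stood for 61 to 99 reads. The genes of the expression table together held 1284408 to 1855048 reads per library. Whether the libraries of a group stem from different animals is not said in the labels, and the p-values rest on the spread among these libraries alone, which may be technical. Under the control label, Rab7 itself had 64.2 and 67.5 RPM, and under the deltaMG label it had 72.2 and 79.4 RPM. It was not lower where the label says it should be absent (log2 fold change 0.20, limma adjusted p = 0.668), so both groups are named by their labels. Whether the labels were exchanged or the gene-level value does not cover the deleted part was not tested, and an exchange would turn the sign of every deltaMG minus control value given here. All young libraries carried Xist at 1715 to 1771 RPM and the aged ones at 0.940 RPM or less, with 4 Y-linked genes summing to 35.7 to 48.7 RPM in the aged and to 0.288 RPM or less in the young, so age and sex cannot be told apart, and "ageing" below stands for aged minus young libraries with both. The control and deltaMG libraries all carried both kinds of transcript. Xist was at 1410 and 924 RPM in control and 1171 and 1562 RPM in deltaMG. The Y-linked genes were at 19.3 and 25.8 RPM in control and 20.3 and 9.11 RPM in deltaMG. Levels of both kinds varied within each group, and the part of this in deltaMG minus control values was not tested.

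Markers of microglia and of other cells differed between the groups too. The 10 microglial markers summed to 5798 to 6276 RPM in young and 4198 to 4659 RPM in aged libraries, without overlap, and to 5197 and 5680 RPM in control (replicates 2 and 1) and 4851 and 6311 RPM in deltaMG libraries. The 11 neutrophil markers were above 0 in every library and summed to 439 to 1243 RPM in young, 801 to 4203 RPM in aged, 293 to 518 RPM in control and 1001 to 1575 RPM in deltaMG libraries. The 6 monocyte markers summed to 75.1 to 193 RPM in young, 147 to 696 RPM in aged, 52.7 to 90.3 RPM in control and 158 to 210 RPM in deltaMG libraries. Aged replicate 3 held the highest neutrophil and monocyte sums, and both sums were higher in deltaMG than in control without overlap. The 5 astrocyte markers summed to 34.7 to 45.9 RPM in young, 23.4 to 32.7 RPM in aged, 47.9 to 53.3 RPM in control and 32.9 to 38.8 RPM in deltaMG libraries. Most of that was Slc1a3 (22.7 to 51.4 RPM), while Gfap and Aldh1l1 had a median of 0. The 5 oligodendrocyte markers summed to 17.7 to 27.6 RPM, led by Mbp (median 12.7 RPM) and Cnp (median 7.45 RPM), with Mog at a median of 0, and the 5 neuronal markers to at most 5.45 RPM. The part of these other cells in the results was not tested.

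RefSeq windows from 250 bases before to 50 after the start site (GRCm38.p6) were given for 38 of the 53 genes. They were searched for TCACGTGA, a palindrome that reads the same on both strands, holds the shorter CACGTG and forms the core of the CLEAR element through which the transcription factor TFEB acts on lysosomal genes. It was present in 7 of the 38 genes (18.42%) and in 1.125% of all 27025 genes with a window. The shorter CACGTG was in 28.95% of the 38 and in 8.093% of all genes. The genes with TCACGTGA were Atp6v0d1, Atp6v0e, Atp6v1a, Rab5a, Vps16, Vps26a and Vps33a. Stretches of the 5 that were tested are printed with the match in capitals, because these genes belong to different complexes and come back in the results. They lie at chr8:105566061-105566108 (minus strand, Atp6v0d1), chr16:44139344-44139431 (minus strand, Atp6v1a), chr17:26676358-26676405 (plus strand, Atp6v0e), chr10:62486941-62487028 (minus strand, Vps26a) and chr5:123573016-123573084 (minus strand, Vps33a), and each is written 5′ to 3′ on the strand of its gene.
Atp6v0d1: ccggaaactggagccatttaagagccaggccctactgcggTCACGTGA
Atp6v1a: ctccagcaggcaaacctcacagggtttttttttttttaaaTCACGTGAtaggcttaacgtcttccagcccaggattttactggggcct
Atp6v0e: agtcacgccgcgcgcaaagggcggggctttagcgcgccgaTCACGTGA
Vps26a: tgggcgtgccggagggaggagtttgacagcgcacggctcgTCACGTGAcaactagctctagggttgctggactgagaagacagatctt
Vps33a: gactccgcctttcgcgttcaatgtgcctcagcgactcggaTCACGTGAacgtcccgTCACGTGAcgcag
The first base of the match lay 132 bases upstream of the start site in Atp6v1a and 183 in Vps26a. It lay 29 bases upstream in Vps33a, which holds 2 matches, and 4 in Atp6v0d1. In Atp6v0e the match began 2 bases downstream of the start site. A match is a description of the sequence and no evidence of binding. The element is known from lysosomal genes, so its higher share in this set is no independent result. The genes with no window were Atp6v1b2, Atp6v1c1, Atp6v1g1, Atp6v1h, Atp6v0a2, Atp6v0d2, Arl8b, Rab7b, Osbpl1a, Vps11, Vps33b, Vps39, Vamp7, Vps35 and Snx2.

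Between the libraries labelled deltaMG and control, 1 of the 33 tested genes was called, Atp6v1c1, which was lower in deltaMG. Over all tested genes 3.78% were called in this comparison, and 2.58% were called lower. The median log2 fold change of the 33 was -0.15, against -0.02 over all tested genes, and 24 of the 33 were negative. At an unadjusted p under 0.05, 8 of the 33 were lower and 0 higher, against 9.93% lower and 8.87% higher over all tested genes. The deltaMG values lay wholly below the control values for 17 of the 33 and wholly above for 2, against 26.6% and 25.2% of all tested genes. The control libraries also stood above all 8 other libraries for 10 of the 33 (30.3%), against 14.5% of all tested genes. In these groups of microglial preparations, fewer cells of a type and less RNA per cell cannot be told apart.

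Between aged and young libraries, 0 of the 33 were called by limma, against 6.14% of all tested genes, and at an unadjusted p under 0.05, 2 were higher and 3 lower. The corresponding shares of all tested genes were 9.66% higher and 11.9% lower. Aged values lay wholly above young values for 2 of the 33 and wholly below for 4, against 8.41% and 15.5% of all tested genes. The median log2 fold change was 0.05, against -0.05 over all tested genes. Without aged replicate 3, the library with the highest neutrophil sum, the medians were -0.08 and -0.10. That library was the highest of the 6 ageing libraries for 17 of the 33 genes, against 33.7% of all tested genes.

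**Figure D1:**
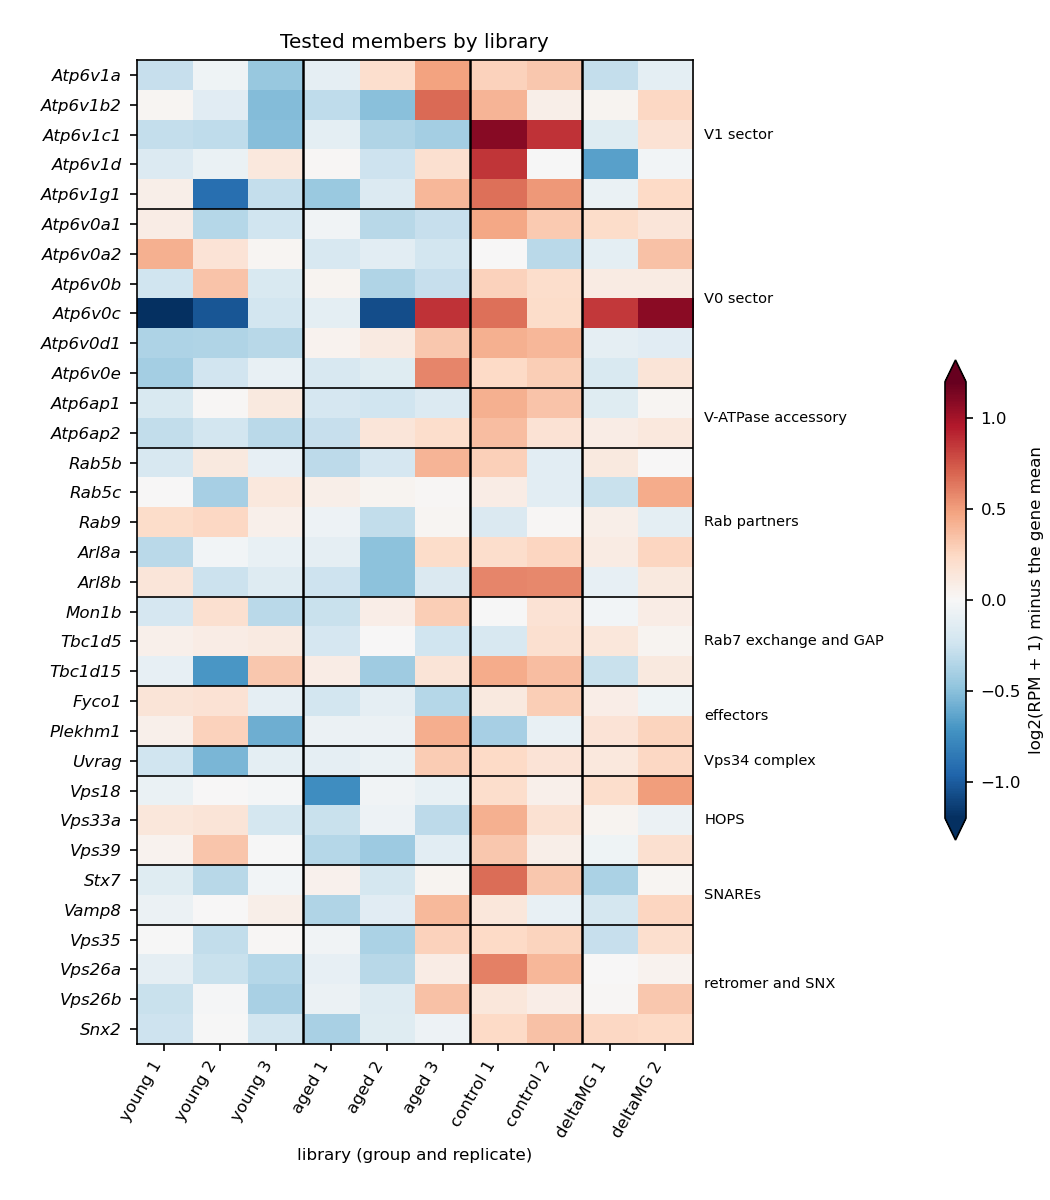
Heat map of log2(RPM + 1) minus the mean of each gene over the 10 libraries, for the 33 tested genes (rows, by complex) in each library (columns, by group and replicate), with red above and blue below the gene's mean and colours saturating at the ends of the bar. The 2 control columns are red for most vacuolar ATPase rows, with Atp6v1c1 darkest, and the aged replicate 3 column is redder than the other aged columns.

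The V1 sector had 8 listed subunits, of which 5 were tested. Atp6v1c1 encodes the C subunit, which holds the 2 sectors of the pump together and is released when they come apart (chromosome 15, 38661933 to 38692446, plus strand, GRCm38). It had 46.2 and 39.3 RPM in the control libraries and 19.0 and 24.0 RPM in the deltaMG libraries. Young libraries had 17.2, 16.9 and 14.5 RPM, and aged libraries 19.4, 16.3 and 15.7 RPM. Both control libraries thus lay above all others, while the deltaMG libraries lay near the range of the ageing groups. The log2 fold change, deltaMG minus control, was -0.96 with a standard error of 0.19, a 1.95-fold lower level, with a limma adjusted p of 0.00895. A fit with a single library in a group assumes that it varies like the other groups. The call was lost without control replicate 1 or deltaMG replicate 1. It was kept without control replicate 2 (log2 fold change -1.08) or deltaMG replicate 2 (-1.13). With a library left out, the log2 fold change of Atp6v1c1 ranged from -1.13 to -0.80. In ageing its log2 fold change was 0.07 (SE 0.15, limma adjusted p = 0.841).

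Atp6v1a encodes the A subunit, which carries the catalytic site (chromosome 16, 44085402 to 44139705, minus strand). It had 45.3 and 46.8 RPM in the control and 30.2 and 34.1 RPM in the deltaMG libraries. Young libraries had 30.4, 35.9 and 26.8 RPM, and aged libraries 34.5, 43.0 and 52.4 RPM. The deltaMG values lay below the control values without overlap, whereas the aged and young values overlapped. The log2 fold change was -0.51 (SE 0.20, limma adjusted p = 0.173) for deltaMG minus control and 0.46 (SE 0.16, adjusted p = 0.111) for aged minus young. Neither was called. The other tested V1 subunits were Atp6v1b2, the nucleotide-binding B subunit, Atp6v1d of the central rotor and Atp6v1g1 of the peripheral stalk. Their log2 fold changes, deltaMG minus control, were -0.10, -0.77 and -0.51, and 0 of them was called by limma (adjusted p of 0.913, 0.144 and 0.433). Atp6v1d rested on control replicate 1, at 29.7 RPM against 15.9 RPM in replicate 2 and 9.80 and 15.6 RPM in deltaMG. All 5 tested subunits were negative in this comparison, with a median of -0.51, against 52.0% negative of all tested genes. Summed over the 8 subunits, the sector held 180 and 151 RPM in control, 101 and 123 RPM in deltaMG, 106, 102 and 93.1 RPM in young and 108, 107 and 149 RPM in aged libraries. The highest aged sum was that of replicate 3.

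The V0 sector had 7 listed subunits, of which 6 were tested and 0 called by limma in either comparison. At an unadjusted p under 0.05, 1 was lower in deltaMG (9.93% of all tested genes), and 1 was higher and 1 lower in aged libraries (9.66% and 11.9%). Atp6v0d1 encodes the d subunit, the collar between the rotating ring and the V1 sector (chromosome 8, 105524465 to 105566047, minus strand). It had 19.9 and 19.6 RPM in control and 13.5 and 13.2 RPM in deltaMG libraries. Young libraries had 11.0, 11.2 and 11.4 RPM and aged libraries 15.0, 15.8 and 18.5 RPM. The young, control and deltaMG groups were tight, with standard deviations of 0.172 to 0.237 RPM. The aged libraries were more spread (1.83 RPM), with replicate 3 highest. Aged lay above young and deltaMG below control, in both cases without overlap. The log2 fold change was 0.52 (SE 0.15, limma adjusted p = 0.0575) for aged minus young and -0.53 (SE 0.19, adjusted p = 0.127) for deltaMG minus control. Rescaling the libraries by median of ratios, to equal totals or by quantiles gave adjusted p of 0.0221, 0.0352 and 0.0386 for the ageing difference, which was not called under 18 of 23 alternative settings and reached 0.183 without aged replicate 3.

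Atp6v0a2, an isoform of the proton-conducting a subunit, moved the other way in ageing, with 46.0, 38.2 and 34.5 RPM in young and 29.6, 31.0 and 29.0 RPM in aged libraries (log2 fold change -0.39, SE 0.16, limma adjusted p = 0.169). The ranges did not overlap, but the difference was not called. Its paralogue Atp6v0a1 had log2 fold changes of -0.05 in ageing and -0.21 in deltaMG (adjusted p = 0.897 and 0.616). The ring subunit Atp6v0b had -0.17 and -0.15, and the small e subunit Atp6v0e had 0.32 and -0.28, with adjusted p of 0.448 to 0.795 over these 4 values. Summed over the 7 subunits, the sector held 132 and 117 RPM in control and 113 and 129 RPM in deltaMG libraries, which overlapped. With the reads of the Atp6v0c pseudogene described next added, these sums were 144 and 133 RPM in control and 116 and 132 RPM in deltaMG libraries, which lay apart by a narrow margin. In young libraries the sum was 107, 102 and 96.2 RPM and in aged libraries 101, 90.7 and 111 RPM, which overlapped too.

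Atp6v0c encodes the main subunit of the proton-conducting ring and has a near-identical pseudogene, which was looked at after the values were seen. The deposited table has a row of its own for Atp6v0c-ps2, a processed pseudogene (chromosome 6, 37806086 to 37806550, plus strand), whose 465-base transcript in GENCODE M21 differs from the Atp6v0c transcript by 1 base change, insertion or deletion (99.78% identity). Atp6v0c had 11.1 and 7.91 RPM in control and 12.7 and 15.2 RPM in deltaMG libraries, so deltaMG was higher without overlap (log2 fold change 0.52, SE 0.49, limma adjusted p = 0.631). The pseudogene row had 12.3 and 15.6 RPM in control and 3.05 and 3.48 RPM in deltaMG libraries, and it fell (log2 fold change -1.80, SE 0.30, adjusted p = 0.00288). With both rows added, control had 23.3 and 23.5 RPM and deltaMG 15.8 and 18.7 RPM, and the sign turned: the log2 fold change was -0.43 (SE 0.22, adjusted p = 0.320). In ageing the sum was 11.3, 14.1 and 12.1 RPM in young and 13.2, 13.6 and 20.3 RPM in aged libraries (log2 fold change 0.28, adjusted p = 0.401), while Atp6v0c alone gave 0.73 (adjusted p = 0.322). How reads were divided between such copies is not given in the sources used here, and the level of Atp6v0c is therefore uncertain in all 10 libraries.

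Both accessory proteins were tested and neither was called. Atp6ap1, a chaperone of pump assembly, had 86.3 and 81.4 RPM in control and 57.8 and 65.2 RPM in deltaMG libraries. Young libraries had 56.3, 64.6 and 69.4 RPM and aged libraries 55.6, 54.1 and 57.0 RPM. The controls again stood above all other libraries, but the difference was not called (log2 fold change -0.44, SE 0.15, limma adjusted p = 0.114). Atp6ap2, the prorenin receptor, had 11.0, 11.6 and 10.8 RPM in young and 11.1, 15.3 and 16.0 RPM in aged libraries (log2 fold change 0.30, SE 0.17, adjusted p = 0.336). These overlapped, and in deltaMG its log2 fold change was -0.16 (adjusted p = 0.743). Both genes and Rab9 lie on the X chromosome.

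Per kilobase of exon, Atp6ap1 had the highest group means among the 17 listed subunits and accessory proteins. These were 28.1 RPM per kb in young, 24.6 in aged, 37.2 in control and 27.3 in deltaMG libraries. The ring subunit Atp6v0b came next outside the control group, at 14.9 to 18.4 RPM per kb. In the control libraries Atp6v1c1, at 20.7 RPM per kb, reached the level of Atp6v0b, at 20.5. The V1 subunits Atp6v1d, Atp6v1e1, Atp6v1f and Atp6v1h stayed between 1.50 and 6.22 RPM per kb in the group means. Atp6v0d2, the d subunit isoform known from osteoclasts and some macrophages, was at most 0.221 RPM per kb. These levels use the union of annotated exons in GENCODE M21, and which exons the authors counted is not known.

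**Figure D2:**
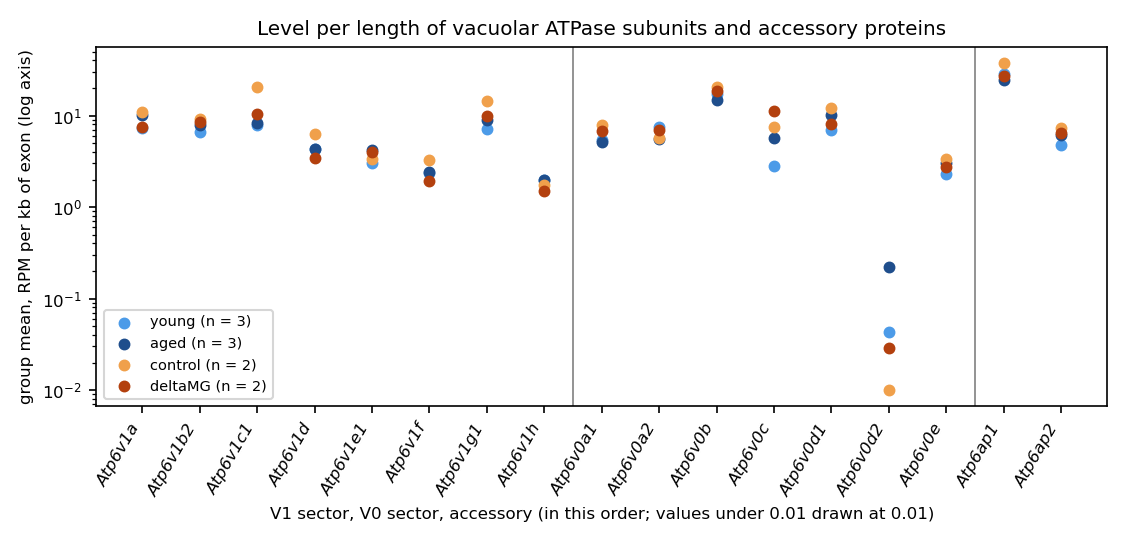
Group mean level in RPM per kb of exon (log axis) of the 17 vacuolar ATPase subunits and accessory proteins, 1 point per group, with n = 3 for young and aged and n = 2 for control and deltaMG. Atp6ap1 is at the top, the control point of Atp6v1c1 lies above its other 3 points, and Atp6v0d2 is at the bottom with values under 0.01 drawn at 0.01.

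Of the 7 Rab and Arl GTPases, 5 were tested and 0 called by limma in either comparison. Arl8b, which links lysosomes to kinesin and recruits HOPS, had 79.3 and 78.5 RPM in control and 49.0 and 57.1 RPM in deltaMG libraries. Young libraries had 58.2, 43.6 and 46.9 RPM and aged libraries 44.0, 37.0 and 46.3 RPM. The 2 control libraries were nearly equal and lay above all others (log2 fold change -0.57, SE 0.17, limma adjusted p = 0.0830). Rescaling the libraries by median of ratios or to equal totals gave adjusted p of 0.0446 and 0.0443, array weights 0.0367, the 4 libraries fitted alone 0.0128, and the fit without aged replicate 3 gave 0.0430. With deltaMG replicate 1 left out it was 0.406 (log2 fold change -0.46), with 1 or the other control library left out 0.367 and 0.272, and with the replicate block 0.175. In ageing its log2 fold change was -0.21 (SE 0.14, adjusted p = 0.422). Its paralogue Arl8a had -0.06 in deltaMG and 0.02 in ageing. The early endosome GTPases Rab5b and Rab5c had -0.02 and 0.11 in deltaMG and 0.03 and 0.13 in ageing, and Rab9, which acts in transport from late endosomes to the Golgi, had 0.06 and -0.28. The adjusted p of these 8 values were 0.422 to 0.981.

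Among the regulators of Rab7 activity, 3 of 4 were tested and 0 called by limma. Tbc1d15, a Rab7 GTPase-activating protein, had 16.8 and 15.8 RPM in control and 9.80 and 13.2 RPM in deltaMG libraries. The young libraries, at 11.2, 7.05 and 15.3 RPM, and the aged, at 12.8, 8.68 and 13.5 RPM, were themselves spread over this range, and the log2 fold change of -0.48 (SE 0.30) had a limma adjusted p of 0.427. Tbc1d5, the GTPase-activating protein that binds retromer, had 47.9, 49.0 and 49.7 RPM in young and 39.9, 46.1 and 38.9 RPM in aged libraries. Aged libraries were lower without overlap, but the difference was not called (log2 fold change -0.23, SE 0.13, adjusted p = 0.352). Mon1b, a subunit of the exchange factor, had 0.15 in ageing and -0.06 in deltaMG.

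Of the 5 Rab7 and Arl8 effectors, 2 were tested and neither was called. Fyco1, which couples Rab7 to kinesin, had 36.6, 37.1 and 30.2 RPM in young and 27.9, 30.3 and 25.7 RPM in aged libraries (log2 fold change -0.30, SE 0.14, limma adjusted p = 0.221). Aged replicate 2 overlapped young replicate 3 by a small margin. Plekhm1, an adaptor between Rab7 and HOPS, was besides Atp6v0c the only one of the 33 tested genes whose deltaMG values both lay above the control values, at 17.7 and 19.0 RPM against 11.6 and 14.7 RPM (log2 fold change 0.46, SE 0.27, adjusted p = 0.395). The young libraries alone ranged from 10.1 to 19.2 RPM. Uvrag, a subunit of the Vps34 lipid kinase complex that also binds HOPS, was the tested one of 2 genes of that complex. It had 8.35, 6.56 and 9.21 RPM in young and 9.24, 9.49 and 12.7 RPM in aged libraries (log2 fold change 0.34, SE 0.20, adjusted p = 0.341), and its difference in deltaMG was -0.01 (SE 0.24, adjusted p = 0.987).

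HOPS, the complex that tethers late endosomes to lysosomes, had 7 listed genes, of which 3 were tested and 0 called by limma. Vps39, a subunit at the end that binds Rab7, had 15.6, 19.3 and 15.1 RPM in young and 11.7, 10.9 and 13.8 RPM in aged libraries. Aged libraries were lower without overlap, with a log2 fold change of -0.42 (SE 0.17, limma adjusted p = 0.154). The control libraries had 19.2 and 15.9 RPM and the deltaMG libraries 14.6 and 17.5 RPM, which overlapped (log2 fold change -0.12, adjusted p = 0.826). Vps33a, the SNARE-binding subunit, had 20.4 and 17.1 RPM in control and 15.3 and 14.2 RPM in deltaMG libraries (log2 fold change -0.32, SE 0.20, adjusted p = 0.434). Vps18, of the core of the complex, had 0.22 in deltaMG and -0.26 in ageing. All 3 tested HOPS genes were negative in ageing, with a median of -0.26, against 57.2% negative and a median of -0.05 over all tested genes.

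Of the 5 SNAREs, the proteins that drive the fusion itself, 2 were tested. Stx7, the syntaxin of late endosomes, had 65.5 and 51.3 RPM in control and 31.2 and 41.5 RPM in deltaMG libraries. Young libraries had 36.7, 32.1 and 39.7 RPM and aged libraries 42.1, 35.0 and 41.8 RPM. The deltaMG libraries lay within or near the range of the ageing groups and below both controls. The log2 fold change was -0.67 (SE 0.19), a 1.60-fold lower level, with a limma adjusted p of 0.0605. It passed the threshold under several other settings, with an adjusted p of 0.0320 after rescaling by median of ratios and 0.0259 with equal totals, and was 0.457 without control replicate 1 and 0.406 without deltaMG replicate 1. In ageing its log2 fold change was 0.13 (SE 0.15, adjusted p = 0.696). Vamp8, its partner on the vesicle, had 0.00 in deltaMG and -0.04 in ageing, with 6.27 to 11.2 RPM over the 10 libraries.

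Retromer and its sorting nexins had 6 listed genes, of which 4 were tested and 0 called by limma. Vps26a, one of 2 interchangeable arrestin-like subunits, had 52.3 and 45.3 RPM in control and 34.2 and 35.2 RPM in deltaMG libraries. Young libraries had 31.5, 28.0 and 26.6 RPM and aged libraries 31.8, 26.8 and 36.3 RPM, so the controls were again above all other libraries. The log2 fold change, deltaMG minus control, was -0.48 (SE 0.17, limma adjusted p = 0.144). Its paralogue Vps26b had 32.4 and 31.1 RPM in control and 29.7 and 37.0 RPM in deltaMG libraries, which overlapped (log2 fold change 0.06, SE 0.20, adjusted p = 0.915). In ageing Vps26b had 24.3, 29.0 and 22.2 RPM in young and 28.0, 26.2 and 37.8 RPM in aged libraries (log2 fold change 0.27, SE 0.16, adjusted p = 0.382), and the highest value was that of replicate 3. The core subunit Vps35 had -0.29 in deltaMG (adjusted p = 0.555) and 0.05 in ageing, and the membrane-bending sorting nexin Snx2 had -0.05 and -0.04.

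**Figure D3:**
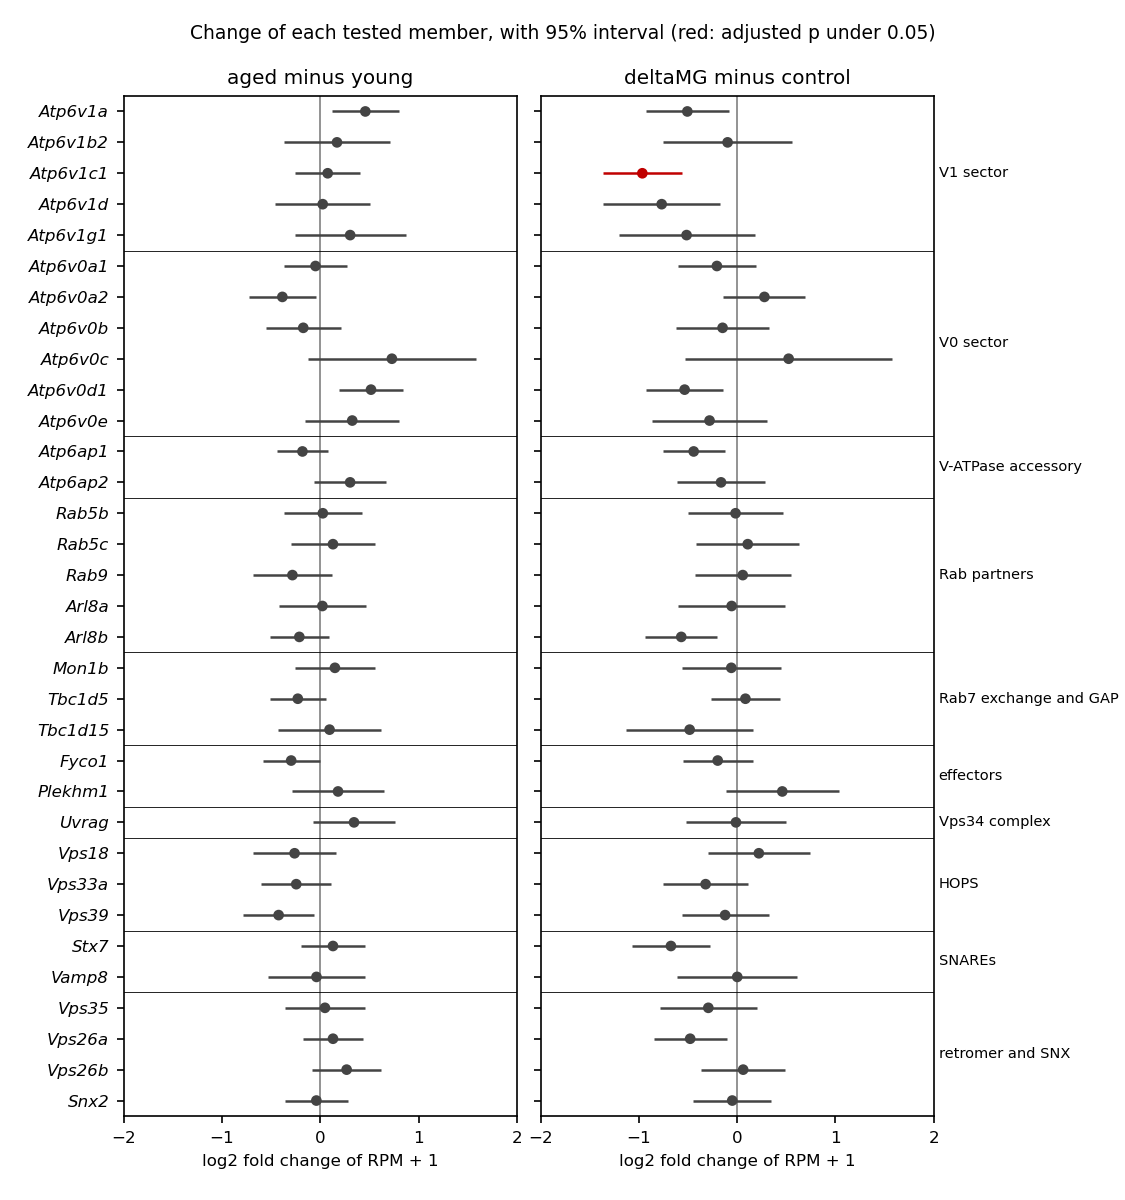
Log2 fold change of RPM + 1 with its 95% interval for each of the 33 tested genes, by complex, for aged minus young (left) and deltaMG minus control (right). Atp6v1c1 on the right, at -0.96, is the only interval in red, which marks a limma adjusted p under 0.05.

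The remaining 20 genes did not reach 10 RPM in 2 libraries. With the minimum lowered to 1 RPM, 18 of them could be tested and 0 was called by limma in either comparison, against 1.69% of 10800 genes for deltaMG minus control and 3.44% for aged minus young. At an unadjusted p under 0.05, Plekhm2 and Vps29 were lower in deltaMG, Rab7b was higher and Vps11 lower in aged libraries. The shares of the 10800 genes at that p were 6.32% lower and 6.37% higher in deltaMG, and 7.31% lower and 9.37% higher in aged libraries. Plekhm2, which joins Arl8 to kinesin, had 7.88 and 8.46 RPM in control and 4.18 and 4.63 RPM in deltaMG libraries (log2 fold change -0.76, SE 0.29, adjusted p = 0.236). Vps29, the third core subunit of retromer, had 9.36 and 9.17 RPM in control and 4.66 and 5.79 RPM in deltaMG libraries (log2 fold change -0.73, SE 0.27, adjusted p = 0.224). For both, the 2 controls lay above all other libraries. Rab7b, a Rab GTPase related to Rab7, had 0.473, 0.328 and 0.432 RPM in young and 0.940, 1.82 and 2.03 RPM in aged libraries, without overlap but at low levels (log2 fold change 0.85, SE 0.29, adjusted p = 0.109). Vps11, a core HOPS subunit, had 7.72, 7.38 and 5.61 RPM in young and 4.54, 3.33 and 5.71 RPM in aged libraries, which overlapped (log2 fold change -0.53, SE 0.24, adjusted p = 0.272). Of the 18, 14 were negative in deltaMG, with a median of -0.25, against -0.003 over the 10800 genes. In ageing 6 were negative, with a median of 0.07, against -0.022 over the 10800 genes.

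The other low genes were described by their levels. In the V1 sector, Atp6v1e1, Atp6v1f and Atp6v1h had 1.67 to 7.52 RPM. Among the HOPS and SNARE genes, Vps41, the subunit at the end opposite Vps39 in the complex, had 13.2 and 9.59 RPM in control, 7.65 and 7.38 RPM in deltaMG, 7.09, 4.59 and 5.61 RPM in young and 7.21, 9.19 and 7.62 RPM in aged libraries, and Vps16, Vps33b, Stx8, Vamp7 and Vti1b were at 0.597 to 6.82 RPM. Vps33b is a paralogue of Vps33a that works mainly outside HOPS. Rab5a, Mon1a, Osbpl1a, Snx1 and Rubcn, the last an inhibitor of the Vps34 complex listed in the table under an older name, ranged from 0.508 to 11.0 RPM. Rilp, the effector that couples Rab7 to dynein, was at 0.836 RPM or less in every library, and Atp6v0d2 at 1.52 RPM or less, so that neither could be compared at this depth.

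**Figure D4:**
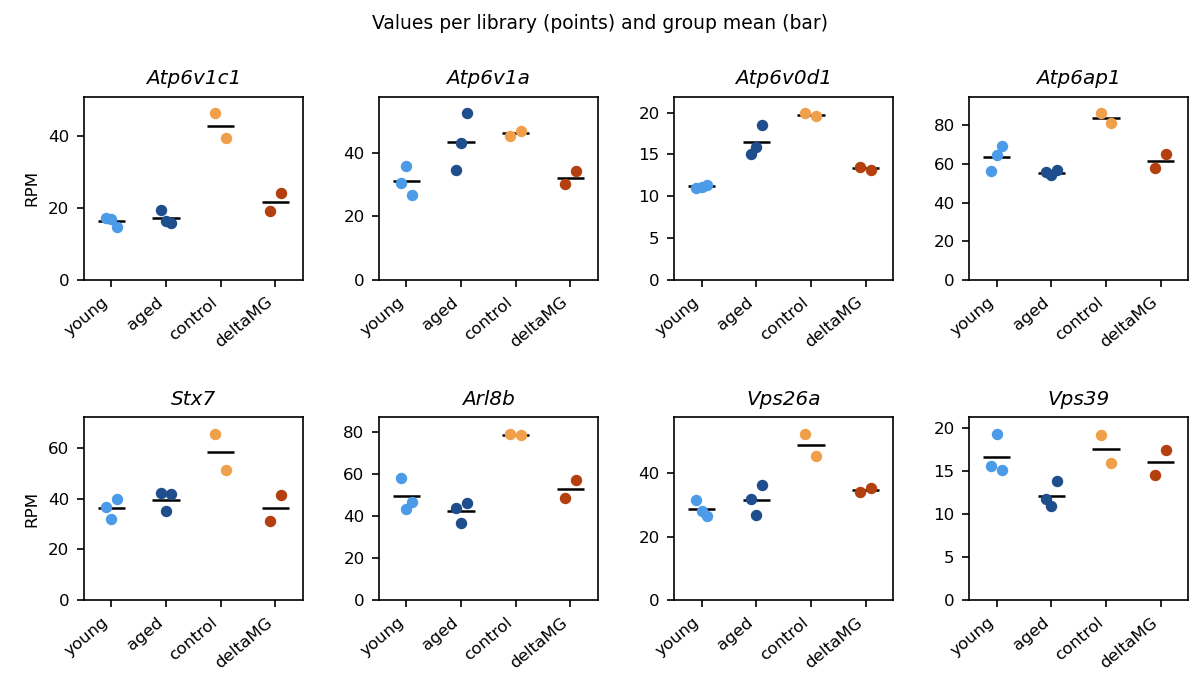
RPM per library (points) and group mean (bar) for 8 genes, with 3 young, 3 aged, 2 control and 2 deltaMG libraries. The control points lie above all others for Atp6v1c1, Atp6v0d1, Atp6ap1, Stx7, Arl8b and Vps26a, and the aged points of Vps39 lie below its young points.

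The 2 comparisons share no library, and the difference between their effects, (deltaMG minus control) minus (aged minus young), was called for 3 of the 33 genes, against 4.79% of all tested genes (2.67% with a negative sign). All 3 were vacuolar ATPase subunits and all 3 were negative: Atp6v0d1 at -1.05 (SE 0.24, limma adjusted p = 0.0191), Atp6v1c1 at -1.04 (SE 0.24, adjusted p = 0.0232) and Atp6v1a at -0.96 (SE 0.25, adjusted p = 0.0429). For Atp6v0d1 and Atp6v1a the difference was made of values of about equal size and opposite sign, and for Atp6v1c1 of the deltaMG comparison alone. If the deltaMG and control labels were exchanged, the values of Atp6v0d1 and Atp6v1a would therefore nearly cancel. The difference for Atp6v1c1 would turn its sign. Whether the labels were exchanged was not tested. The calls of the 3 genes were lost when single libraries were left out. Adjusted p for Atp6v0d1 was 0.0575 to 0.106 without either control or either deltaMG library, that for Atp6v1c1 was 0.0563 to 0.164 without aged replicate 1, either control library or deltaMG replicate 1, and that for Atp6v1a was 0.0512 to 0.157 without young replicates 1 or 3, aged replicate 3 or any of the 4 libraries of the other comparison. With no filter on low values it was 0.0679 for Atp6v1c1 and 0.123 for Atp6v1a. The median difference was -0.47 over the 13 tested vacuolar ATPase genes, -0.06 over the 20 others and 0.02 over all tested genes. The 5 tested genes with TCACGTGA in their window, printed above, had log2 fold changes of -0.53 (Atp6v0d1), -0.51 (Atp6v1a), -0.48 (Vps26a), -0.32 (Vps33a) and -0.28 (Atp6v0e) in deltaMG. In ageing these were 0.52, 0.46, 0.13, -0.25 and 0.32 in the same order. All 5 were negative in the former, as were 24 of the 33 tested genes of the set and 52.0% of all tested genes, and they were mixed in sign in the latter. Adjusted p by limma of these 5 was 0.127 to 0.646 in deltaMG and 0.0575 to 0.669 in ageing. Vps16 and Rab5a, which also hold the match, were under the minimum of 10 RPM. At a minimum of 1 RPM, Vps16 was positive in deltaMG, at 0.44 (limma adjusted p = 0.647), and Rab5a negative, at -0.26 (adjusted p = 0.776). In ageing they had 0.06 and -0.07.

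**Figure D5:**
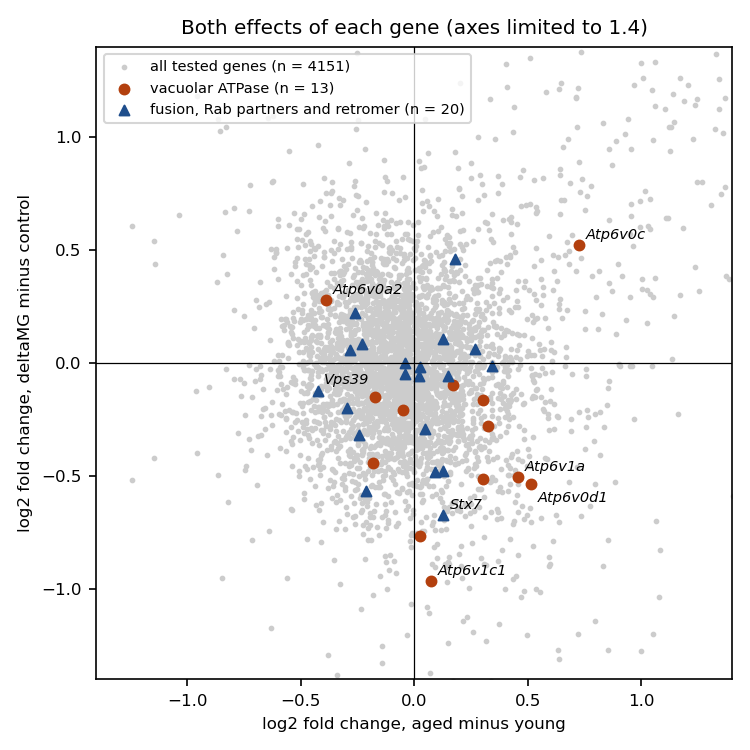
Log2 fold change in ageing (x axis) against that in deltaMG minus control (y axis) for the 4151 tested genes (grey), the 13 tested vacuolar ATPase genes (circles) and the 20 other tested genes of the set (triangles), with axes limited to 1.4. Of the circles, 11 lie below the horizontal line, with Atp6v1c1 lowest, and Atp6v1a and Atp6v0d1 lie to the lower right.

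Other genes of the same routes were taken from a list of 105, of which 53 were tested. In ageing 2 of these 53 were called, both higher, against 6.14% of all tested genes. In deltaMG 0 were called by limma, against 3.78%, and 9 were lower and 0 higher at an unadjusted p under 0.05, against 9.93% and 8.87%. Of 19 other vacuolar ATPase isoforms, assembly factors and regulators, 7 were tested and Dmxl2 was called. Dmxl2, a subunit of the complex that reassembles the pump, had 19.4, 24.4 and 16.0 RPM in young and 28.8, 27.3 and 38.9 RPM in aged libraries, without overlap (log2 fold change 0.64, SE 0.18, limma adjusted p = 0.0465). Of 28 genes of cargo retrieval, 15 were tested and Sorl1 was called. Sorl1, a sorting receptor and retromer cargo known for variants in Alzheimer's disease, had 11.98, 8.85 and 6.19 RPM in young and 16.3, 14.1 and 29.6 RPM in aged libraries (log2 fold change 1.04, SE 0.26, adjusted p = 0.0327), a 2.06-fold higher level without overlap. For both the highest value was that of aged replicate 3. Adjusted p over the alternative settings was 0.0179 to 0.149 for Dmxl2 and 0.0104 to 0.105 for Sorl1. Without aged replicate 3 their log2 fold changes were 0.49 (adjusted p = 0.141) and 0.73 (adjusted p = 0.0960). The call was also lost without aged replicate 1, young replicate 3 or either control library for both genes, without young replicate 2 for Sorl1, and without young replicate 1 or either deltaMG library for Dmxl2. No gene was called among the 15 tested of 27 on early endosome fusion, SNAREs and Rabs, the 11 of 16 on phosphoinositides or the 5 of 15 on lysosome positioning. Of the 11 tested phosphoinositide genes, 10 were negative in ageing, with a median of -0.22, against 64.2% of the 53 related genes and 57.2% of all tested genes.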

How the data were processed

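Per the labels' protocols, microglial RNA was amplified (NuGEN Ovation) before Ion Xpress libraries were made. FastQC, GRCm38 and mm10 are named by the submitters' processing notes. How reads were aligned, counted, assigned to strands and normalised is not given in the sources used here. The deposited values were taken as RPM, since low values were whole multiples of a step in each library (0.101 to 0.164 RPM) above a constant of 0.0001, which was subtracted. Of values up to 500 steps, 94.2% to 94.6% were within 0.05 of a whole number, so no count model was used.

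Values were fitted as log2(RPM + 1) in 4 groups sharing 1 spread with limma 3.58.1 (R 4.3.3) and a mean-dependent prior variance, and p-values were adjusted by Benjamini-Hochberg over the 4151 genes that reached 10 RPM in 2 or more libraries. Lengths and positions came from GENCODE M21 (GRCm38), promoter windows from RefSeq (GRCm38.p6). Figures were drawn with matplotlib 3.10.9. The fit was tested on simulated data.

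Genes are given with full values where they were called in any contrast or had the smallest unadjusted p of their complex, and related genes where called. Other genes given by value were chosen after their values were seen. The rule for the 53 genes reads names only, but the genes and lists were chosen with earlier results of these data known. Alternatives covered the filter, pseudocount, scaling, libraries in the fit, replicate block, moderation, weights, the threshold and each library left out in turn. The sum of Atp6v0c with its pseudogene was added after seeing the data.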

Additional observations from a re-analysis of the deposited data

Results flagged for a closer look

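For 3 vacuolar ATPase subunits the difference between deltaMG and control libraries was not that between aged and young libraries, by the test of that difference in limma. For Atp6v0d1 the difference was -1.05 on the log2 scale (adjusted p = 0.0191), with aged libraries above young and deltaMG below control, each without overlap. For Atp6v1a it was -0.96 (adjusted p = 0.0429), with the same signs but with overlap between aged and young libraries. For Atp6v1c1 it was -1.04 (limma adjusted p = 0.0232), where the aged minus young difference was 0.07. With the deltaMG and control labels exchanged, the values of Atp6v0d1 and Atp6v1a would nearly cancel. Whether the labels were exchanged was not tested. The call was lost under 5 of 22 alternative settings for Atp6v0d1, 6 of 22 for Atp6v1c1 and 11 of 22 for Atp6v1a, and the calls of all 3 genes were lost with the replicate block and without control replicate 1, control replicate 2 or deltaMG replicate 1. Neutrophil marker sums were higher in the deltaMG libraries (1001 and 1575 RPM) than in the controls (293 and 518 RPM), and their part in these differences was not tested. No group was large enough for a check of single libraries that stand apart.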

How the results depend on the processing

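For aged minus young, the 0 calls among the 33 tested genes became 2 with median-of-ratios rescaling, 1 with equal totals, with quantile normalization, without a trend in the prior variance or at an adjusted p under 0.10, and 0 to 1 with a library left out, the 1 being without aged replicate 2. For deltaMG minus control, the 1 call became 3 with median-of-ratios rescaling, equal totals, array weights or an adjusted p under 0.10, 2 with quantile normalization or robust moderation, 5 with the 4 libraries fitted alone, and 0 to 3 with a library left out, with 0 lacking control replicate 1 or deltaMG replicate 1, 2 lacking aged replicate 2 and 3 lacking aged replicate 3. At a minimum of 50 RPM the called gene was Stx7, since Atp6v1c1 was no longer tested. For the difference of effects, the 3 calls became 1 with no filter, 0 at a minimum of 50 RPM, and 0 to 4 with a library left out, with 0 lacking control replicate 1, control replicate 2 or deltaMG replicate 1 and 1 lacking deltaMG replicate 2. The minimum of 50 RPM and the fit with no filter change which genes are tested (874 and 15802 against 4151). Beyond that, the cause of these changes was not tested.

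The log2 fold change of Uvrag in deltaMG, -0.012, was 0.012 with median-of-ratios rescaling, 0.023 without control replicate 1 and 0.047 without deltaMG replicate 1, and ranged from -0.071 to 0.047 with a library left out. That of Atp6v0c turned from 0.52 to -0.43 when summed with its pseudogene, and in ageing it was 0.24 to 1.21 with a library left out, called without aged replicate 2. Of 626 alternative values for single genes, 553 kept direction and side of the threshold, 46 lost the call, 23 gained it and 4 changed sign.

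Over all genes, calls ranged with the setting: 255 for aged minus young and 157 for deltaMG minus control became 66 and 69 with the replicate block, 121 and 510 with own groups only, 174 and 110 with no filter, 132 and 90 at a minimum of 50 RPM, 361 and 357 with array weights, and 96 to 422 and 25 to 317 with a library left out. The 199 of the difference of effects became 102 with the replicate block, 116 at 50 RPM, 344 with array weights and 71 to 264 with a library left out. The 255 ageing calls were 131 higher and 124 lower, and with median-of-ratios rescaling there were 316, of which 224 were higher and 92 lower. Same-numbered libraries did not deviate together in ageing (correlations -0.14, -0.24 and -0.39). With 2 libraries in a group, their deviations from the group mean are mirror images. The 0.12 of the 2 other pairs therefore cannot show whether control and deltaMG libraries are paired by number. With the replicate block, members called were 0, 1 and 0 in ageing, deltaMG and the difference of effects.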
